A study of Homo sapiens with 6 samples.

Results

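The ERBB receptors and the EGF-family ligands that bind them were described in 67R cells, with all 10 members taken by gene symbol out of the 60664 genes of the expression table. They comprise 4 receptors (EGFR, ERBB2, ERBB3 and ERBB4) and 6 ligands (EGF, AREG, EREG, TGFA, HBEGF and BTC). 67R cells are NCI-H1975 cells, an EGFR-mutant lung adenocarcinoma line, that had become resistant to the EGFR tyrosine kinase inhibitor ASK120067 under escalating doses of it. RNA-seq libraries came from 3 samples transfected with a negative control siRNA (siNC, labelled NC) and 3 transfected with siRNA against BCAT1 (siBCAT1, labelled as BCAT1 knockdown). Both groups carry the acquired resistance, and the labels name no drug given to either of them. Parental cells were not analysed here, and the time of harvest is not given in the sources used here. The study's text speaks of 67R single-cell clones in its proteomic comparison, and whether the sequenced cells were 1 such clone is not stated for these libraries.

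ERBB receptors are cell surface tyrosine kinases that pair with one another when a ligand binds, and they pass the signal to the RAS-MAPK and PI3K-AKT pathways. EGF, AREG, TGFA, HBEGF, EREG and BTC bind EGFR, and HBEGF, EREG and BTC also bind ERBB4, whereas ERBB2 has no known ligand of its own and ERBB3 has hardly any kinase activity. In lung adenocarcinoma, EGFR mutations that switch the kinase on are the target of drugs such as ASK120067, and signalling through the other ERBB receptors is a known way around them.

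Expression was given as TPM, a unit in which transcripts are scaled by their length and then to an equal total in each library. Levels of different genes can be set side by side as far as the lengths used hold. The gene lengths given were 985 bases for TGFA and 956 for AREG, against 4310 and 1240 in the principal GENCODE transcript. For EGFR, ERBB2 and HBEGF they were 9905, 4557 and 2358, against 9821, 4545 and 2386. Read numbers cannot be had from TPM, so depth is unknown, and the 3 libraries of a group set the precision. BCAT1, the targeted gene, was lower in 3 of 3 siBCAT1 libraries than in any siNC library, with a log2 fold change of -2.12 ± 0.15 (SE) and a Benjamini-Hochberg adjusted p of 0.000272 in limma. Of the 6 epithelial markers, all were expressed, and their summed level was 2546 to 2948 TPM in siNC and 1647 to 1935 TPM in siBCAT1 libraries. The 5 lung adenocarcinoma markers, NKX2-1 and NAPSA among them, summed to at most 0.44 TPM, so these defining markers were near absent. Of markers of other cell types, PTPRC, CD3E, CD79A, PECAM1, VWF, DCN and LUM were under the filter on low values in these libraries, and CD68, COL1A1, COL1A2 and CDH5 were above it. The 4 immune markers summed to 29.6 to 37.2 TPM in siNC and 52.5 to 60.0 TPM in siBCAT1 libraries, nearly all of it CD68, the 3 endothelial markers to at most 2.61 TPM, and the 4 fibroblast markers to 248 to 267 TPM in siNC and 186 to 242 TPM in siBCAT1 libraries, with DCN and LUM at 0 throughout. In bulk RNA, fewer expressing cells and less RNA per cell cannot be told apart.

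Of the 10 members, 3 made up nearly all of the family's mRNA: the receptors ERBB2 and EGFR and the ligand HBEGF. The test took genes averaging 1 TPM or more across all libraries, which left 14286 genes and 4 members, namely EGFR, ERBB2, ERBB3 and HBEGF. None of these 4 passed an adjusted p of 0.05 (limma on log2(TPM + 1), 0 higher and 0 lower), while 27.1% of all genes tested did. At an unadjusted p under 0.05, 2 of the 4 passed, against 39.7% of all genes. The groups did not overlap for 2 of the 4 members, EGFR and ERBB2, against 44.1% of all genes tested (26.1% apart and higher, 18% apart and lower). With 4 members tested, 1 gene more or fewer moves such a share far past these differences, so nothing is read from them. The median log2 fold change was -0.02 over the 4 members and 0.04 over all genes tested.

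**Figure D1:**
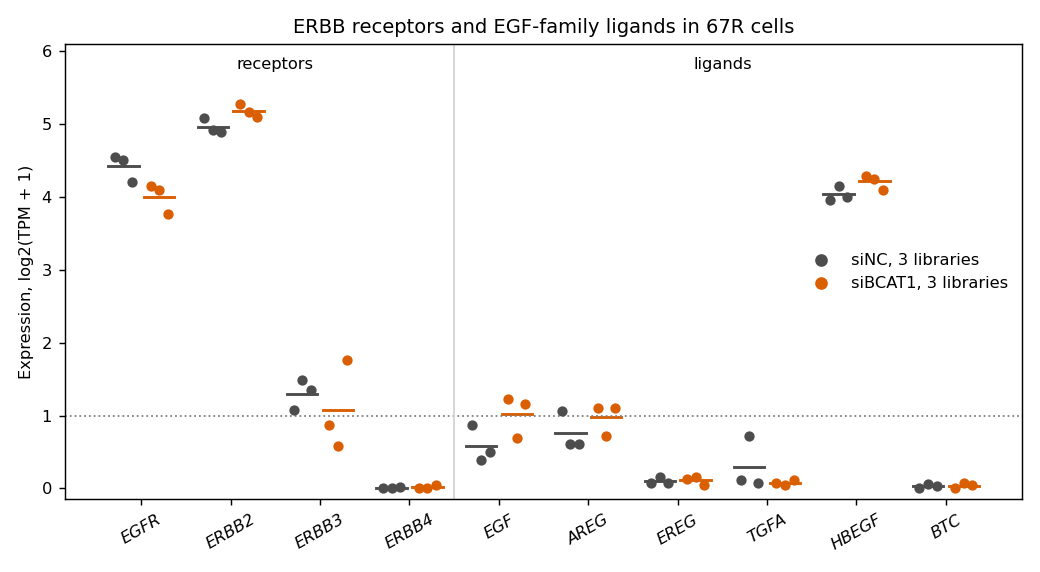
Level of each member on the log2(TPM + 1) axis in the 3 siNC (grey) and 3 siBCAT1 (orange) libraries; points are libraries, horizontal bars are group means, and the dotted line marks 1 TPM. ERBB2, EGFR and HBEGF stand far above the other 7 members, the EGFR points of siBCAT1 lie below those of siNC, and the ERBB2 points lie the other way.

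EGFR, the target of the drug to which these cells are resistant, was lower in siBCAT1 cells by a margin that did not pass the threshold. It measured 22.42, 21.68 and 17.45 TPM in siNC 1, 2 and 3, against 16.72, 16.12 and 12.64 TPM in siBCAT1 1, 2 and 3. All siBCAT1 libraries were below all siNC libraries, though the lowest siNC and the highest siBCAT1 value were close. The mean was 20.5 ± 2.68 TPM in siNC and 15.2 ± 2.20 TPM in siBCAT1 (SD, n = 3 each), which is 0.739 of the siNC mean. The log2 fold change was -0.41 (SE 0.14, 95% interval -0.74 to -0.09), with an adjusted p of 0.0643 from limma. This call depends on the processing. Leaving aside fits with a replicate block, the adjusted p was under 0.05 in 5 of 12 alternatives. It lay between 0.0278 and 0.180 over all 12, with the fold change negative in each. With the replicate number as a block the limma adjusted p was 0.0116, and 0.0140 with a GC content and length correction added. Leaving out siNC replicate 1 gave an adjusted p of 0.180 and leaving out siNC replicate 3 gave 0.0462.

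EGFR (ENSG00000146648, chromosome 7, 55019021 to 55211628, plus strand, GRCh38) has 11 annotated transcripts, and its principal GENCODE transcript has 28 exons and a 3′ UTR of 6011 bases. An antisense gene, EGFR-AS1, lies inside it on the opposite strand, from 55179750 to 55188934. It measured 0.23, 0.22 and 0.14 TPM in siNC 1, 2 and 3, against 0.10, 0.09 and 0.05 TPM in siBCAT1 1, 2 and 3. These values are at most 0.23 TPM and, like those of EGFR, do not overlap between the groups, but they were under the filter and were not tested. The library kit keeps the strand, but the setting used for counting is not given in the sources used here.

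The promoters of EGFR and HBEGF, the most abundant EGFR-binding ligand, are shown with that of AREG, a ligand of the same receptor at under 1.2 TPM in every library. The 3 genes were picked as examples that differ in level and in these windows, and a link of level and window was not tested. The sequences are the 250 bases before the RefSeq gene start on GRCh38.p14, 5′ to 3′ on the gene's strand. That start lies 4 bases from the GENCODE start for EGFR, 28 for HBEGF and 2 for AREG. The HBEGF and AREG windows thus reach into the GENCODE gene. Capitals mark the GC box GGGCGG, a word bound by SP1-family factors, on either strand (CCGCCC).
EGFR, chr7:55018767-55019016, plus strand: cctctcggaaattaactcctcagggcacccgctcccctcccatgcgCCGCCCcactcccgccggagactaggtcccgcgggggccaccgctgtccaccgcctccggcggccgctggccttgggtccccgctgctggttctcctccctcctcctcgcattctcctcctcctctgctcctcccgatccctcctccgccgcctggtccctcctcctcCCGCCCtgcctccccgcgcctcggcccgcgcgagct
HBEGF, chr5:140346604-140346853, minus strand: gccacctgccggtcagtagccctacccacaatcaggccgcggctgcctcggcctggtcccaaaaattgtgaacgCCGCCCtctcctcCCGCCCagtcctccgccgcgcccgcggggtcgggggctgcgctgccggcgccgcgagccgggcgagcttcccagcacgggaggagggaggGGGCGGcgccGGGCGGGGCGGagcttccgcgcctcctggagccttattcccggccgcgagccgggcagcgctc
AREG, chr4:74444886-74445135, plus strand: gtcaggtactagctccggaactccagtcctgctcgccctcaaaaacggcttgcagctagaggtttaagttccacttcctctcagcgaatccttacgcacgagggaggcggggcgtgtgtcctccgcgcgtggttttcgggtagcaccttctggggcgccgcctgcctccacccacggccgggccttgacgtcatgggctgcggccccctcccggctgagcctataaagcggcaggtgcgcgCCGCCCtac

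The EGFR window held 2 GC boxes, the HBEGF window 5 and the AREG window 1, where overlapping words count separately, and 42.6% of the 35114 promoter windows of this length in the table held at least 1. AREG also held the TATA box word TATAAA on 1 strand, as did EREG, whereas EGFR and HBEGF did not, and 10.7% of all windows did. GC content was 73.6% in the EGFR window, 76.4% in HBEGF and 65.2% in AREG, against a median of 58.0% over all windows. Other members went the other way: the window of ERBB2, the most abundant member, held 0 GC boxes at a GC content of 65.6%. That of TGFA, at no more than 0.65 TPM in any library, held 3 at 75.6%. The RefSeq starts of ERBB2 and TGFA lie 180 and 367 bases inside the GENCODE genes. Most of the ERBB2 window and all of the TGFA window thus lie within the GENCODE gene, unlike the printed windows. The AP-1 word TGANTCA, found in 6.57% of windows, was in neither the EGFR, HBEGF nor AREG window, and the hypoxia response core ACGTG, found in 18.5%, was in none of the 9 windows matched to members. CCAAT was in none of the 3 printed windows and in 32.0% of all. These are matches of letters and say nothing of binding. EGFR had 2 entries in the table, and the one nearer to the GENCODE start was used.

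ERBB2, the partner that other ERBB receptors favour for pairing, was the most abundant member in every library. It measured 33.03, 29.18 and 28.68 TPM in siNC 1, 2 and 3, against 37.92, 34.79 and 33.12 TPM in siBCAT1 1, 2 and 3. The siBCAT1 values were all higher than the siNC values, with siNC replicate 1 and siBCAT1 replicate 3 nearly level. The means were 30.3 ± 2.38 and 35.3 ± 2.44 TPM (SD, n = 3 each), and the log2 fold change was 0.21 (SE 0.09, 95% interval 0.01 to 0.42, limma adjusted p = 0.115). With the GC content and length correction its adjusted p was 0.0309 and that of EGFR was 0.0325. Over the same 12 alternatives that of ERBB2 lay between 0.0309 and 0.286. With the replicate number as a block the limma adjusted p of ERBB2 was 0.0441, and 0.0269 with the correction added. ERBB2 (ENSG00000141736, chromosome 17, 39687914 to 39730426, plus strand) overlaps MIEN1 and PGAP3 on the opposite strand. Both were tested, with log2 fold changes of 0.23 and -0.17 and adjusted p of 0.140 and 0.509 from limma.

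Because EGFR and ERBB2 differed in opposite directions, their ratio within a library, which no scaling of libraries changes, moved more than either gene. The ratio of EGFR to ERBB2 TPM was 0.679, 0.743 and 0.608 in siNC 1, 2 and 3, against 0.441, 0.463 and 0.382 in siBCAT1 1, 2 and 3. The means were 0.677 ± 0.0673 in siNC and 0.429 ± 0.0422 in siBCAT1 (SD, n = 3 each). The ranges of EGFR and of ERBB2 were each apart, in opposite directions, so those of the ratio had to be apart too. That separation adds nothing to the values of EGFR and ERBB2, neither of which passed the threshold. The difference of the log2 ratios was -0.66, and a two-sided exact permutation test gave p = 0.1, the smallest that 3 libraries against 3 allow. This p was fixed by the separation as well, so only the size of the difference is read from the ratio. With each library left out in turn the difference lay between -0.73 and -0.58, and it was -0.64 after the GC content and length correction. EGFR made up 39.1 ± 2.33% of the receptor TPM in siNC and 29.2 ± 2.68% in siBCAT1 (SD, n = 3 each).

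The receptors as a sum did not separate the groups. The 4 receptors together measured 56.56, 52.66 and 47.68 TPM in siNC 1, 2 and 3, against 55.47, 51.41 and 48.19 TPM in siBCAT1 1, 2 and 3, with overlapping ranges and a two-sided exact permutation p of 0.8 (difference of log2 sums -0.02). The 6 ligands together measured 16.59, 18.39 and 16.05 TPM in siNC 1, 2 and 3, against 21.20, 19.51 and 18.71 TPM in siBCAT1 1, 2 and 3. The siBCAT1 sums were all above the siNC sums, by 0.22 on the log2 scale, at the smallest p the exact test allows (p = 0.1, permutation, two-sided). The highest siNC and the lowest siBCAT1 sum were close. HBEGF, which made up most of the sum, overlapped between the groups. So did the ligands without HBEGF, at 1.05 to 2.05 TPM in siNC and 1.47 to 2.62 TPM in siBCAT1.

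**Figure D2:**
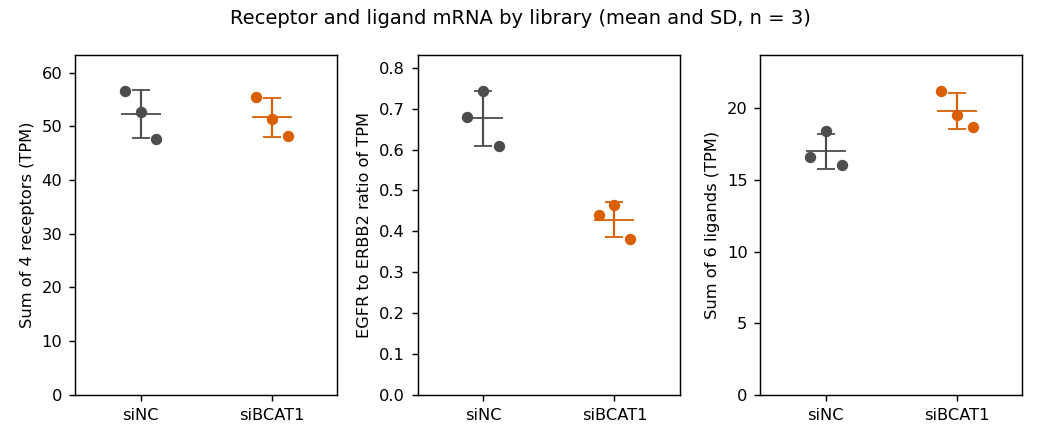
Sum of the 4 receptors in TPM (left), ratio of EGFR to ERBB2 TPM (middle) and sum of the 6 ligands in TPM (right) in siNC and siBCAT1 libraries; points are libraries and bars are the mean ± SD (n = 3). The receptor sums overlap, and the ratio is 0.382 to 0.463 in siBCAT1 against 0.608 to 0.743 in siNC. The ligand sums of siBCAT1 lie narrowly above those of siNC, although HBEGF, most of that sum, overlaps.

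ERBB3, the receptor for neuregulins that binds PI3K when phosphorylated by its partners, was low in both groups. It measured 1.11, 1.8 and 1.54 TPM in siNC 1, 2 and 3, against 0.83, 0.50 and 2.40 TPM in siBCAT1 1, 2 and 3. The siBCAT1 libraries spanned both the lowest and the highest value, so the groups overlapped. The log2 fold change was -0.23 (SE 0.33, 95% interval -1.0 to 0.55, limma adjusted p = 0.648), and without siBCAT1 replicate 2 it was 0.02. ERBB4, the other neuregulin receptor, was listed at 0 in 4 of the 6 libraries and at no more than 0.03 TPM, and was not tested.

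HBEGF, the heparin-binding ligand, was the one ligand of the 6 that passed the filter on low values. It measured 14.54, 16.76 and 15 TPM in siNC 1, 2 and 3, against 18.58, 18.04 and 16.18 TPM in siBCAT1 1, 2 and 3. The groups overlapped, as siBCAT1 replicate 3 was below siNC replicate 2. The means were 15.4 ± 1.17 and 17.6 ± 1.26 TPM (SD, n = 3 each), and the log2 fold change was 0.18 (SE 0.09, 95% interval -0.04 to 0.40, limma adjusted p = 0.206). No alternative brought HBEGF past the threshold. It held between 86.5% and 93.5% of the ligand TPM in each library. In GRCh38 HBEGF (ENSG00000113070) runs on chromosome 5 from 140332843 to 140346631, minus strand.

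The other 5 ligands had means under 1 TPM over the 6 libraries and were described without a test. EGF measured 0.83, 0.31 and 0.41 TPM in siNC 1, 2 and 3, against 1.34, 0.62 and 1.24 TPM in siBCAT1 1, 2 and 3, so that siBCAT1 replicate 2 fell among the siNC values. AREG, amphiregulin, measured 1.09, 0.52 and 0.52 TPM in siNC 1, 2 and 3, against 1.14, 0.65 and 1.15 TPM in siBCAT1 1, 2 and 3, again with overlap. TGFA was at 0.65 TPM in siNC replicate 2 and at no more than 0.08 TPM in the other 5 libraries. EREG, epiregulin, stayed between 0.03 and 0.12 TPM and BTC, betacellulin, between 0 and 0.05 TPM. When all genes were tested without the filter on low values, none of these 5 ligands nor ERBB4 passed the threshold (adjusted p between 0.319 and 0.897 from limma).

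EREG, AREG and BTC, together with EPGN, another EGFR ligand, lie in one cluster of 486 kb on chromosome 4. EREG (74365143 to 74388751) and AREG (74445134 to 74455009) are 56.4 kb apart on the plus strand, and BTC (74744759 to 74794686) is on the minus strand. Although neighbours, they were not at like levels: AREG was between 0.52 and 1.15 TPM, while EREG and BTC were at no more than 0.12 TPM in any library. EPGN was between 0.02 and 0.47 TPM.

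In siNC the order of mean levels was ERBB2, EGFR, HBEGF, ERBB3, AREG, EGF, TGFA, EREG, BTC and ERBB4. ERBB2 and EGFR, EGFR and HBEGF, HBEGF and ERBB3, ERBB3 and AREG, and EREG and BTC did not overlap in siNC, whereas AREG and EGF, EGF and TGFA, TGFA and EREG, and BTC and ERBB4 did. In siBCAT1 HBEGF (17.6 TPM) stood above EGFR (15.2 TPM), but their ranges overlapped there, and EGF stood above AREG, also with overlap. ERBB2 remained apart from the next gene in both groups. Among the genes tested, 70.3% had a lower mean than ERBB2 in siNC, 60.7% a lower mean than EGFR and 53.0% a lower mean than HBEGF.

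**Figure D3:**
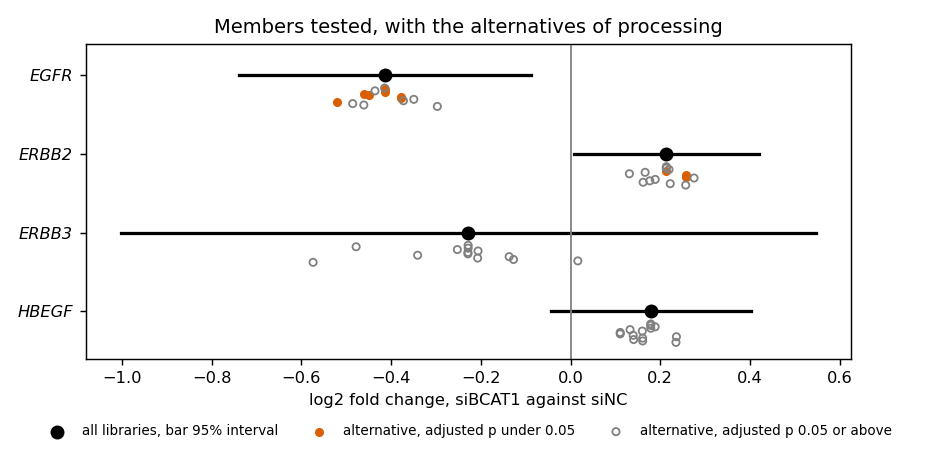
log2 fold change of the 4 members tested, siBCAT1 against siNC; black points and bars are the value from all libraries and its 95% interval, and small points are the 14 alternatives of processing (2 of them with the replicate number as a block; 13 for ERBB3), filled in orange where the adjusted p was under 0.05. EGFR lies below 0 and ERBB2 and HBEGF above 0 under every alternative, with filled points for EGFR and ERBB2 only, and ERBB3 has the widest interval, from -1.0 to 0.55.

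Over the 6 libraries, the genes whose log2(TPM + 1) followed that of EGFR most closely were AAK1, TRAK2 and TEAD1, with Pearson's r of 0.996, 0.994 and 0.994, as a description over libraries that fall into the same 2 groups. A correlation above 0.9 with EGFR was found for 475 of 13008 named genes. The correlation of EGFR was -0.34 with ERBB2, -0.33 with HBEGF and -0.19 with ERBB3. For AREG the closest genes were HNRNPDLP4, KIFAP3 and ZNF788P, with r of 0.986, 0.982 and 0.981.

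The words that pair with the seeds of the siRNA guides were searched in the 3′ UTRs, since the study's methods name 2 BCAT1 targets. The labels do not say which was used, while the methods use the plain name siBCAT1 for the siBCAT1-2 target. The word TTGAGCA, of siBCAT1-2, occurred 1 time in the EGFR 3′ UTR. It was present in 39.1% of the 555 tested genes with a 3′ UTR within 20% of that length, with a median log2 fold change of -0.03 in those with it and 0.01 in those without it. AGACAAT, of siBCAT1-1, was not found in the 3′ UTRs of EGFR, ERBB2 or HBEGF and occurred 1 time in that of ERBB3. Over 11671 tested genes, of any 3′ UTR length, the median log2 fold change was -0.09 with AGACAAT and 0.05 without it. For TTGAGCA it was 0.01 and 0.04 over the same genes. Among the 555 genes of like length it was -0.07 with AGACAAT and 0.02 without it. The part of these sites in the members' values was not tested.

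Around the receptors, 6 lists of genes were counted in the same fit: other EGF-family ligands, proteins of ligand shedding, receptor inhibitors, receptor trafficking, signal transduction and MAPK output. Of their 89 genes, 82 were tested, and 6 were higher and 16 lower with an adjusted p under 0.05, which is 26.8% against 27.1% of all genes. By direction, 16.7% of all genes tested were higher and 10.4% were lower.

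Neither the remaining ligands nor the shedding machinery held a gene past the threshold. Of the 5 other ligands only NRG1, a neuregulin that binds ERBB3 and ERBB4, was tested. It measured 25.25, 28.81 and 25.88 TPM in siNC 1, 2 and 3, against 24.61, 20.56 and 21.18 TPM in siBCAT1 1, 2 and 3, above HBEGF in every library. Its groups did not overlap, with a log2 fold change of -0.26 (SE 0.10, limma adjusted p = 0.0891). The 6 shedding genes tested, which include the protease ADAM17 and its partners RHBDF1 and RHBDF2, had a median log2 fold change of -0.15. By limma 0 were higher and 0 lower, against 27.1% of all genes tested, and 2 had an unadjusted p under 0.05, against 39.7%.

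Receptor inhibitors held the furthest fall of the 6 lists. Of 14 tested, 4 were lower and 1 was higher, a share of 35.7% against 27.1% of all genes tested. The median log2 fold change was -0.09. LRIG1, a membrane protein that promotes the breakdown of ERBB receptors, fell from 21.7 ± 6.17 to 7.65 ± 0.794 TPM (SD, n = 3 each), which is -1.36 ± 0.19 on the log2 scale (change ± SE, limma adjusted p = 0.00307). The ubiquitin ligase CBLB fell by 0.89 and UBASH3B, which binds CBL proteins, fell by 0.66 on the log2 scale. UBASH3B is counted in this list, but whether it restrains or favours ERBB receptors in these cells was not tested. RNF41, a ubiquitin ligase for ERBB3, rose by a log2 fold change of 0.37. ERRFI1, an inhibitor of the EGFR kinase, did not pass (log2 fold change -0.28, limma adjusted p = 0.116). The 4 genes named as changed kept their direction and their side of the threshold under each alternative that tested them.

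In receptor trafficking 3 of 15 genes were higher and 2 lower, a share of 33.3% against 27.1% of all genes tested. EPN1, an endocytic adaptor, went from 55.7 ± 7.0 to 146 ± 9.34 TPM (SD, n = 3 each), which is 1.38 ± 0.10 on the log2 scale (change ± SE, limma adjusted p = 0.000286). RAB5A of early endosomes (0.41) and TSG101 of the ESCRT machinery (0.33) rose, and RAB11A of recycling endosomes (-0.32) and AP2M1 of the clathrin adaptor (-0.20) fell, with log2 fold changes in parentheses. The calls of TSG101, RAB11A and AP2M1 were lost under several alternatives, and the count of lower genes was 0 or 1 with any 1 library left out. Over all genes the lower count then lay between 859 and 1466, against 1483 with all libraries.

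Among the 27 genes of signal transduction, 2 were higher and 2 lower, a share of 14.8% against 27.1% of all genes tested. The median log2 fold change was 0.00. PTPN11, the phosphatase SHP2 that acts between receptors and RAS, rose from 25.1 ± 4.08 to 56.4 ± 3.35 TPM (SD, n = 3 each), which is 1.15 ± 0.12 on the log2 scale (change ± SE, limma adjusted p = 0.000967). RefSeq lists 5 pseudogene copies of PTPN11, which makes its value uncertain where reads are shared. AKT1, a kinase downstream of PI3K, rose by a log2 fold change of 0.50, and the adaptor SHC1 (-0.53) and the kinase SRC (-0.32) fell. With 1 library left out the lower count was 0 or 1, while over all genes it was 859 to 1466, against 1483 with all libraries.

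Of the 19 genes of MAPK output, which the ERK pathway is known to induce, 8 were lower and 0 higher. That is a share of 42.1%, against 27.1% of all genes tested in either direction and 10.4% lower. The median log2 fold change was -0.30. CCND1, cyclin D1, fell from 243 ± 35.4 to 107 ± 8.45 TPM (SD, n = 3 each), which is -1.17 ± 0.11 on the log2 scale (change ± SE, limma adjusted p = 0.000745). DUSP5 (-0.83) and DUSP4 (-0.80), phosphatases that act on ERK, fell as well. The DUSP5 value is uncertain where reads are shared with its pseudogenes DUSP5P1 and DUSP5P2. DUSP6 did not pass (-0.25, limma adjusted p = 0.521). ETV4 (0.27), SPRY4 (0.07) and SPRED2 (0.02) had positive log2 fold changes and did not pass, and the other 16 genes had negative ones. The count of lower genes was 3 without siNC replicate 1, 5 without siBCAT1 replicate 1, 4 without siBCAT1 replicate 2 and 5 without siBCAT1 replicate 3. Lower calls over all genes also dropped in these fits, to 859, 1026, 958 and 987, against 1483 with all libraries. The epithelial markers moved with the falls in MAPK output: 5 of 6, all but EPCAM, were lower in siBCAT1 with an adjusted p under 0.05 from limma. CDH1 had a log2 fold change of -2.41, and the part of these markers in the result was not tested.

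**Figure D4:**
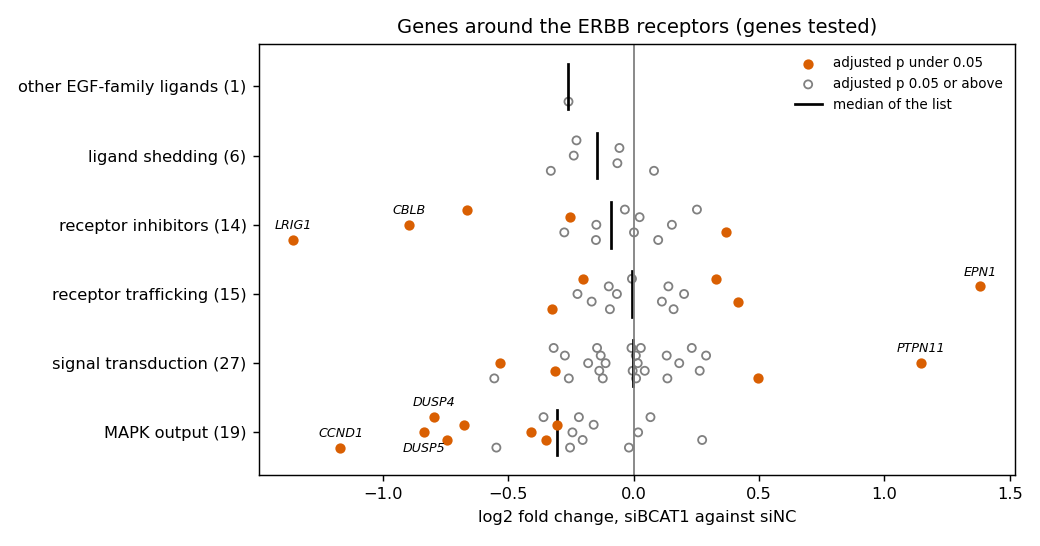
log2 fold change, siBCAT1 against siNC, of each tested gene of the 6 lists around the ERBB receptors, with the number tested in parentheses; filled points passed an adjusted p of 0.05, open points did not, and black bars are list medians. MAPK output lies mostly below 0 (median -0.30), while signal transduction is centred at 0.00 with PTPN11 far to the right, and LRIG1 and EPN1 mark the ends of the range.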

How the data were processed

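RNA-seq libraries of 67R cells, 3 siNC and 3 siBCAT1, were grouped by their titles. The submitters' processing notes name fastp, HISAT2, StringTie and GRCh38; versions, annotation and counting settings are not given in the sources used here. The authors deposited 1 value per gene and library, read as TPM because each library sums to between 992512 and 995593, beside a gene length in bases, which served only for the length correction. The labels do not say whether replicates are separate cultures, so p-values measure only the spread between these samples, which may be technical.

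Values were transformed to log2(TPM + 1), a scale that understates changes of low genes. The 14286 of 60664 genes averaging 1 TPM or more entered one limma fit (version 3.58.1, R 4.3.3; moderated with an intensity trend; two-sided). Adjustment was by Benjamini-Hochberg over these genes with a threshold of 0.05, and the script was first tested on simulated data. Ratios and sums per library were compared by exact permutation tests (scipy 1.17.1). Gene models, GC content and 3′ UTRs came from GENCODE 29, and promoters from RefSeq, which matched 9 of 10 members. GC content was available for 99.0% of the genes tested.

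All members, BCAT1 and, of each list, up to 3 called genes with the largest rise and fall were named; EGFR and AREG were compared with all genes for likeness. Other genes with values in the text were named after their values were seen. Members and lists were chosen with earlier results of these data known. Alternatives were other filters (none, 5 TPM), 0.1 as pseudocount, a block for replicate number, median-ratio scaling, quantile normalization, loess removal of GC content and length trends (span 0.5), this correction with the block, and each library left out in turn; those of the ratio were added after seeing the data.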

Additional observations from a re-analysis of the deposited data

How the results depend on the processing

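BCAT1 kept its direction and side of the threshold under all 14 alternatives (log2 fold change -2.28 to -2.03). EGFR was negative and ERBB2 and HBEGF were positive under all 14. With each library left out the log2 fold change of ERBB3 lay between -0.57 (without siBCAT1 replicate 3) and 0.016 (without siBCAT1 replicate 2, adjusted p = 0.979), where it turned. No member passed the threshold in the reported result, without the filter, or with a pseudocount of 0.1. A mean of at least 5 TPM, median-ratio scaling and quantile normalization each gave 1 lower member (EGFR), and the GC content and length correction gave 1 lower and 1 higher (EGFR and ERBB2). With each library left out the count of lower members lay between 0 and 1, the 1 being EGFR without siNC replicate 3. The ratio of EGFR to ERBB2 stayed within its spread under 9 alternatives.

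The replicate numbers were not taken to pair the samples, a point that the labels do not settle. Deviations of same-numbered libraries correlated at 0.084, 0.102 and 0.124, not all over 0.1, although each correlated best with its own number. Those of libraries with unlike numbers correlated between -0.081 and -0.013. Deviations from a group mean cancel within the group, so these negative values largely follow from the positive ones and are no separate sign. Pairing remains possible. With the replicate block 1 member was lower (EGFR, adjusted p = 0.0116) and 1 higher (ERBB2, 0.0441), and the same with the correction added (0.0140 and 0.0269). The block gave 4568 called genes against 3865, 2 lower shedding genes, 4 higher signal transduction genes and 1 higher MAPK output gene; with the correction added these were 3, 4 and 1.

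Of the lists, NRG1 made 1 lower ligand under median-ratio scaling, quantile normalization and the correction. Lower shedding genes were 1, 2 and 1 under these, lower signal transduction genes 4 and 5 under the first and second, and higher receptor inhibitors 2 under the correction. Without the filter, 31860 genes were tested, with 2567 called in all and 960 lower, and lower genes were 0 in trafficking, 0 in signal transduction and 3 in MAPK output. With each library left out, lower genes lay between 0 and 1 in trafficking and in signal transduction, between 3 and 7 in MAPK output and between 859 and 1466 over all genes, and higher genes over all lay between 1501 and 2317. The causes were not tested. TPM give no depth, so for ERBB4, EREG, TGFA and BTC no difference was detectable at these levels.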

Other observations

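Genes beside the 3 abundant members were read by position, the 3 nearest tested protein-coding genes on each side; they were picked by place, and the ones given values were picked with those values in view. Around ERBB2 on chromosome 17 none of the 6 passed an adjusted p of 0.05 from limma: CDK12, STARD3, PGAP3, MIEN1, GSDMB and ORMDL3 had log2 fold changes between -0.26 and 0.40. Around EGFR on chromosome 7, VOPP1 rose from 19.9 to 39.7 TPM (log2 fold change 0.96, adjusted p = 0.00109 from limma), SEC61G fell from 255 to 216 TPM (-0.24, adjusted p = 0.0133 from limma), and FIGNL1, GRB10, LANCL2 and ZNF713 did not pass. LANCL2, the nearest tested gene after EGFR, was at 15.8 TPM in both groups. Around HBEGF on chromosome 5, PURA (0.40) and ANKHD1 (0.39) rose and PFDN1 (-0.48) fell on the log2 scale. Their adjusted p from limma were 0.0475, 0.0400 and 0.00174, and CYSTM1, ANKHD1-EIF4EBP3 and SRA1 did not pass. Of all genes tested 27.1% passed, so with 6 genes around each member nothing is read from these counts.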
